A study of Homo sapiens with 36 samples.

Results

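Human H9 embryonic stem cells with 1 disrupted copy of RAI1 (labelled RAI1 Het) were followed from day 3 to day 7 of neuronal induction, and the 4 libraries labelled HET at day 7 were compared with the 4 labelled HET at day 3, 8 of the 36 libraries of the study. Libraries entered the comparison by their labels. The study, by its design text, profiled unedited WT, RAI1+/− and RAI1−/− (KO) H9-derived induced neurons at days 0, 3 and 7, with 4 libraries in each of the 9 groups. All groups shared the H9 background, a doxycycline-dependent NGN2 system, maintenance in mTeSR Plus on Geltrex, and a neuronal medium of Neurobasal-A with GlutaMAX, B27, GDNF, NT3 and CultureOne. Libraries were made from total RNA after ribosomal RNA depletion and carried 1 batch label. How many edited clones the HET libraries represent, and until which day doxycycline was given, is not stated in the labels. The libraries are called biological replicates there without naming separate cultures, so p-values measure the spread between these libraries.

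NGN2, encoded by NEUROG2, is a basic helix-loop-helix transcription factor that drives stem cells into neurons when it is expressed from a transgene. In such cultures pluripotency genes are lost first, the cells then leave the cell cycle, and genes for the axon, the synapse and excitability follow. RAI1 encodes a nuclear chromatin-associated protein, and loss of 1 copy is a cause of Smith-Magenis syndrome.

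Between day 3 and day 7 the RNA of cell division genes fell in HET cells, and that of most axonal, synaptic and ion channel genes rose. All 33 tested genes of a DNA replication and mitosis list fell, with a median log2 change of -5.28. Of 37 presynaptic genes 28 rose, and 26 of 37 postsynaptic genes rose. Over all genes, 8955 of 21715 tested (41.2%) passed an adjusted p of 0.05 in edgeR's quasi-likelihood test, of which 4508 (20.8%) were higher at day 7 and 4447 (20.5%) were lower. These shares are the background against which each list count should be read, and the median log2 change over all genes tested was 0. Among the called genes 3335 rose and 2958 fell by at least 1 on the log2 scale, while 829 rose and 655 fell by at least 3. With limma on log2(TPM + 1) in place of edgeR, 2587 genes passed, among them 32 of the division genes (all lower), 13 presynaptic and 13 postsynaptic genes (all higher). The median size was 1.52 for rises and 1.34 for falls. Protein-coding genes made up 3562 of the rises and 3604 of the falls.

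**Figure D1:**
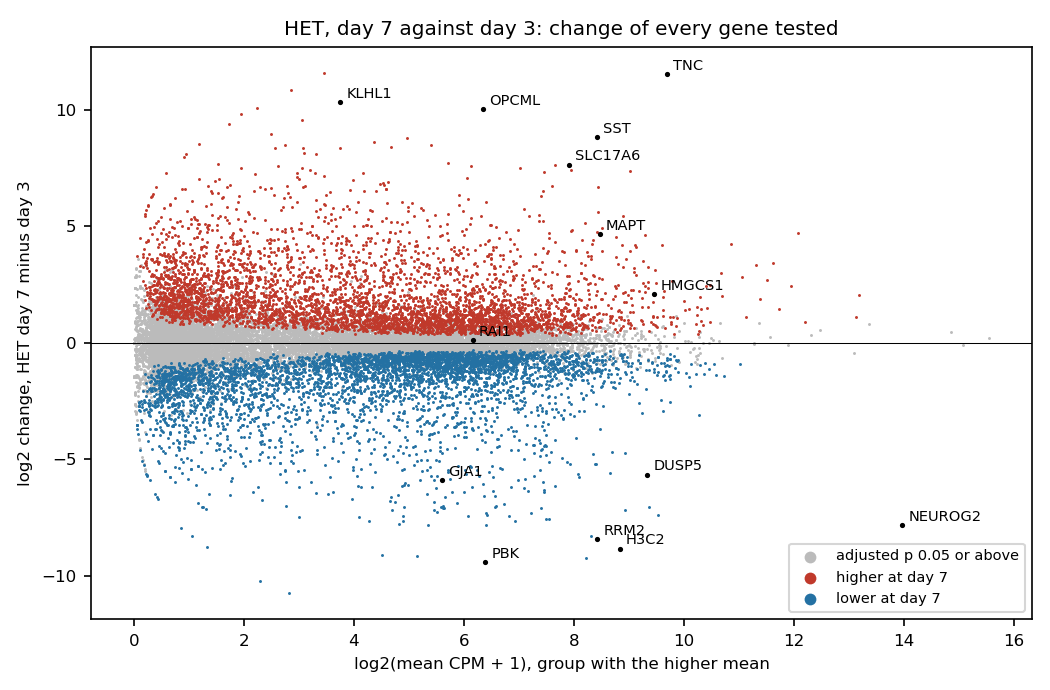
Log2 change from day 3 to day 7 in HET cells (vertical axis) against the higher of its day 3 and day 7 mean levels on a log2(CPM + 1) scale (horizontal axis), 1 point per tested gene, red where called higher, blue where called lower and grey otherwise. The 4508 rises and 4447 falls spread over the whole range of levels, and 14 named genes are marked.

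Library totals were 32.0 to 56.7 M counts at day 3 and 25.8 to 49.5 M at day 7. One library stood apart in each group: correlations of log2(CPM + 1) across genes between replicates ran from 0.9578 to 0.9948 at day 3, lowest with replicate 4, and from 0.9444 to 0.9937 at day 7, lowest with replicate 1. Small structural RNAs (5 genes such as 7SL and 7SK) took 13.7%, 5.11%, 11.2% and 16.1% of counts at day 3 and 27.5%, 2.84%, 4.17% and 13.3% at day 7, the largest share being that of day 7 replicate 1. The mean difference of 0.44 percentage points was within the spread (exact permutation p = 0.971, two-sided, and the smallest p that 70 splits allow is 0.0286). Mitochondrially encoded genes took 1.12%, 1.33%, 1.0% and 0.9% at day 3 and 0.24%, 1.63%, 1.09% and 1.31% at day 7 (exact permutation p = 0.914, adjusted over both shares 0.971), again with day 7 replicate 1 apart. Without day 7 replicate 1, 10756 of 22507 genes passed (47.8%), with 5267 higher (23.4%) and 5489 lower (24.4%). Of the 8955 genes called on all libraries 8425 were called with the same sign without it, 530 were not and 2331 were added. Leaving out day 3 replicate 4 as well, an alternative chosen after seeing the data, gave 11320 calls.

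RAI1 itself (chr17:17681473-17811453 on GRCh38, plus strand, overlapping SREBF1) had 66.6, 90.6, 81.3 and 37.5 CPM at day 3 and 59.8, 84.9, 88.1 and 48.8 CPM at day 7. The groups overlapped throughout, and the mean was 69 ± 23.2 CPM at day 3 and 70.4 ± 19.2 CPM at day 7 (SD, n = 4 and 4), against 41.5 CPM at day 0. The log2 change was 0.11 with an SE of 0.24 (edgeR adjusted p = 0.749), which puts no direction on it. None of 5 genes, RAI1 and 4 reported partners, passed (median 0.11, 0 at an unadjusted p under 0.05 in edgeR, and 0 by DESeq2 or limma), but 1 was called higher without day 7 replicate 1. The labels do not say whether the edit removes counted transcript, so these values are no check of the genotype. Without day 3 replicate 4, the lowest of its group, the log2 change was -0.07.

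Marker genes matched the labelled course. The summed level of 8 genes of post-mitotic neurons ran from 1764 to 4412 CPM over the 4 day 3 libraries and from 10339 to 13627 CPM at day 7, with 393 to 663 CPM in HET stem cells at day 0. DCX, a microtubule-associated protein of immature neurons, had 539, 1119, 1185 and 211 CPM at day 3 and 2146, 4945, 5351 and 3461 CPM at day 7. STMN2, a growth cone protein, had 233, 437, 509.9 and 79.4 CPM at day 3 and 1440.0, 2465, 2592 and 2004 CPM at day 7. In both genes the groups did not overlap, and day 3 replicate 4 was the lowest of all 8 libraries. The sum of 5 stem cell markers was 874 to 1885 CPM at day 0, 46.7 to 68.2 CPM at day 3 and 9.65 to 23.6 CPM at day 7. DPPA4 held most of it in each day 3 and day 7 library, with means of 49.3 and 14.8 CPM. The fall after day 3 was thus mostly that of 1 gene, apart from POU5F1 at 31 CPM in day 3 replicate 4. NANOG, a core pluripotency factor, averaged 0.043 CPM at day 3 and 0.076 CPM at day 7.

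Markers of other cell types were summed as well. The 6 astrocyte markers summed to 33.1 to 72.1 CPM at day 3 and 1.15 to 4.81 CPM at day 7. GJA1 held most of that sum, with a mean of 47.7 CPM at day 3 and 857 CPM at day 0. GFAP, the defining astrocyte filament, averaged 0.499 and 0.272 CPM, whereas SLC1A3 went from 0.456 to 0.972 CPM, AQP4 from 0 to 0.199 CPM and S100B from 0.007 to 0.168 CPM. The 7 mesenchymal markers went from a range of 146 to 852 CPM to one of 6.4 to 39.3 CPM, with the highest day 3 value in replicate 4. The 5 oligodendrocyte markers went from 31.2 to 52.6 CPM up to 158 to 240 CPM, through OLIG1 and OLIG2, transcription factors that motor neuron and oligodendrocyte progenitors share, while SOX10, the defining factor of the lineage, averaged 0.724 and 0.907 CPM. The 8 peripheral neuron and neural crest markers went from 172 to 259 CPM up to 651 to 1046 CPM. Bulk RNA cannot tell a change in the number of cells of a type from a change in RNA per cell, and the part of these genes in the results that follow was not tested.

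Division genes had the lowest median of the 31 gene lists. All 33 genes fell and in all 33 the day 7 libraries lay below every day 3 library, against 19.6% of all tested genes. Their summed level was 5408, 5988, 4414 and 3582 CPM at day 3 and 269.9, 240.3, 235.7 and 231.2 CPM at day 7, with a mean of 6814 CPM at day 0. The lowest day 3 value, in replicate 4, was still far above all 4 day 7 values. Without day 7 replicate 1 all 33 still fell, with a median of -5.59.

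RRM2, the ribonucleotide reductase subunit that limits nucleotide supply in S phase, had 556, 322, 269 and 226 CPM at day 3 and 2.1, 0.258, 0.202 and 0.776 CPM at day 7 (log2 -8.43, SE 0.75, edgeR adjusted p = 2.6e-06). AURKB, the kinase of the chromosomal passenger complex, had 84.5, 87.9, 58.9 and 102 CPM at day 3 and 0.808, 0.0287, 0.0252 and 0.388 CPM at day 7 (log2 -7.82, SE 0.72, edgeR adjusted p = 3.67e-06). In both genes day 7 replicate 1 held the highest day 7 value, and without it the changes were -9.80 and -9.39. TK1, thymidine kinase of the salvage pathway, had 19, 20.2, 18.1 and 15.8 CPM at day 3 and 0.101, 0.0287, 0.0504 and 0.155 CPM at day 7 (log2 -7.67, SE 0.32, edgeR adjusted p = 1.06e-08). PBK, a mitotic kinase outside the list, had 113, 80.8, 78.5 and 60.1 CPM at day 3 and 0.141, 0.0573, 0.0252 and 0.233 CPM at day 7 (log2 -9.44, SE 0.46, edgeR adjusted p = 2.73e-08), and its groups were as clearly apart. The proliferation antigen MKI67 went from 488 ± 216 to 3.03 ± 0.915 CPM (SD, n = 4 and 4), with a log2 change of -7.20. CDK1, the kinase that starts mitosis, changed by -7.11. The smallest fall of the list was that of MCM7, a subunit of the replicative helicase, at -1.13. The other MCM subunits of the list fell by 2.25 to 3.02 on the log2 scale.

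Promoters of these genes are printed because they fell together. RefSeq promoters on GRCh38.p14 were available for 27 of the 33 genes. The window from 250 bases before to 20 bases after the start was searched on both strands for CCAAT, the core of the site bound by the NF-Y complex, and for TTTGAA, a core form of the cell cycle homology element bound by the DREAM complex. CCAAT was found in 21 of 27 (77.8%), against 34.2% of all 27305 promoters and 39.1% of those of genes called lower. TTTGAA was found in 8 (29.6%), against 14.3% of all, 9.73% of those of tested genes and 11.4% of those of genes called lower. Both stood in 7 (25.9%), those of MKI67, TOP2A, CDK1, CCNB2, PLK1, KIF11 and CDC20, against 5.37% of all and 5.68% of those called lower. In the 150 bases before and 20 bases after the start, capitals mark either motif, with ATTGG and TTCAAA as their reverse complements. CCNB2 (cyclin B2, chr15:59104996-59105165, plus strand), PLK1 (polo-like kinase 1, chr16:23678739-23678908, plus) and KIF11 (spindle kinesin, chr10:92592980-92593149, plus) hold both motifs, MKI67 (chr10:128126404-128126573, minus) holds a TTTGAA that overlaps an ATTGG, and RRM2 (chr2:10122589-10122758, plus) holds 3 CCAAT and no TTTGAA in it.
CCNB2: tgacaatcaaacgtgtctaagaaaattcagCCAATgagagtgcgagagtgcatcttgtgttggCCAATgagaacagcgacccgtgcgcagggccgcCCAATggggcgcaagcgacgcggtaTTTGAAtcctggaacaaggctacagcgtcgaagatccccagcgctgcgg
PLK1: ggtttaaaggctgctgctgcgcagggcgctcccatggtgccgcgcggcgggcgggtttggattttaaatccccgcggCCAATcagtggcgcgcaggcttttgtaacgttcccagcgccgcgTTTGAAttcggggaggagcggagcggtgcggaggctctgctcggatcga
KIF11: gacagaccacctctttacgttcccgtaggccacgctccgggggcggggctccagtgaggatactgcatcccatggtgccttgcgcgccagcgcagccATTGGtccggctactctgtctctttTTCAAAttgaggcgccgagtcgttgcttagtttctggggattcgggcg
MKI67: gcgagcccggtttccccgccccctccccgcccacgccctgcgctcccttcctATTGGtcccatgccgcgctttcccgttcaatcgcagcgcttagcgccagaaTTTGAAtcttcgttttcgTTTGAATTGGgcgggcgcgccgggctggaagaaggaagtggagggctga
RRM2: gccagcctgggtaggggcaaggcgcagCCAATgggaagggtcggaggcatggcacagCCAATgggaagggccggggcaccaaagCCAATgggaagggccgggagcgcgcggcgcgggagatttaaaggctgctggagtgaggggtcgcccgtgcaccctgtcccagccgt

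A match is a description of the letters, and binding was not measured. CCNB2 went from 81.1 to 0.763 CPM, log2 -6.60, PLK1 from 89.8 to 2.04 CPM, log2 -5.28, and KIF11 from 125 to 4.68 CPM, log2 -4.62. Among presynaptic genes, CCAAT was found in 6 of 29 promoters (20.7%), and among postsynaptic genes in 7 of 25 (28%). CAGATG, an E-box form bound by proneural factors, was in 5 of the 29 (17.2%) and 4 of the 25 (16%). It was in 13.4% of all promoters, 9.36% of those of tested genes and 10.6% of those of genes called higher.

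Replication-dependent histone genes, which are transcribed in S phase, followed the same direction. Of 63 tested 56 fell, none rose (0 at an unadjusted p under 0.05 in edgeR, and 0 by DESeq2 or limma) and 7 did not pass, with a median of -3.78 (-3.71 with genes at 0 in a group set to their bound). Their sum was 14070, 9453, 10920 and 5075 CPM at day 3 and 1450, 332.9, 474.6 and 780.6 CPM at day 7. Day 3 replicate 4 and day 7 replicate 1 stood nearest to each other, and without day 7 replicate 1, 60 fell. H3C8 had 537, 199, 301 and 157 CPM at day 3 and 1.13, 0, 0 and 0.504 CPM at day 7 (log2 -9.23, SE 1.0, edgeR adjusted p = 1.36e-05, and -11.08 without day 7 replicate 1). A count of 0 in 1 of these 8 libraries allows a level of up to 0.053 to 0.116 CPM (3 counts). Histone genes are near-identical copies, so how reads were split among them is uncertain. CCAAT was found in 53 of 63 histone promoters (84.1%).

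Proneural factors split. Of 18 tested genes 10 rose, 3 fell and 5 did not pass, with a median of 1.86. NEUROG2 (chr4:112513516-112516172, minus) had 16437, 15819, 14425 and 17469.7 CPM at day 3 and 71.7, 66.3, 59 and 67 CPM at day 7, so that all 4 day 7 libraries lay far below day 3, with 8.55 CPM at day 0 (log2 -7.84, SE 0.35, edgeR adjusted p = 1.78e-08). The counts cannot tell the endogenous gene from the NGN2 transgene. The other 2 that fell were NEUROD4, a neurogenic factor that follows NGN2, at -2.64, and HES6, at -2.47. The sum of the list was 17110 to 19800 CPM at day 3, of which NEUROG2 held most. At day 7 it was 2522 to 3523 CPM, of which NEUROG2 held only 59 to 71.7 CPM, so other genes of the list made up most of it.

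Rises in the proneural list were led by the snail-family repressors of post-mitotic neurons. SCRT2 had 2.26, 1.78, 2.24 and 0.876 CPM at day 3 and 33.2, 40.3, 33.8 and 52.5 CPM at day 7 (log2 4.55, SE 0.36, edgeR adjusted p = 9.56e-07), and SCRT1 had 7.83, 9.98, 12.6 and 3.19 CPM at day 3 and 123, 84.4, 59.4 and 149 CPM at day 7 (log2 3.75, SE 0.41, edgeR adjusted p = 1.49e-05). For both genes every day 7 library was above every day 3 library. NEUROG1, the closest relative of NEUROG2, had 1.27, 1.62, 1.43 and 0.219 CPM at day 3 and 7.56, 15.1, 7 and 14.1 CPM at day 7 (log2 3.34, SE 0.7, edgeR adjusted p = 0.00193). The neuronal zinc finger gene MYT1 changed by 2.99, and the EBF1 and EBF3 factors of neuronal differentiation by 2.18 and 2.04.

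Of 22 Notch pathway genes 9 fell, 3 rose and 10 did not pass (median -0.48, and -0.74 without day 7 replicate 1). The receptor NOTCH2 had 80.7, 76.8, 54.3 and 73.2 CPM at day 3 and 5.51, 4.87, 3.3 and 6.05 CPM at day 7 (log2 -3.76, SE 0.26, edgeR adjusted p = 3.2e-07). The ligand DLL4 had 64.9, 74.6, 86.1 and 53.8 CPM at day 3 and 8.5, 4.1, 2.82 and 4.46 CPM at day 7 (log2 -3.65, SE 0.38, edgeR adjusted p = 8.83e-06), and the target repressor HEYL had 63.8, 71.5, 56.2 and 62 CPM at day 3 and 7.21, 3.78, 1.74 and 6.13 CPM at day 7 (log2 -3.61, SE 0.49, edgeR adjusted p = 8.06e-05). In these 3 genes the groups were far apart. Falls were also called for the receptors NOTCH1 and NOTCH3, the ligands DLL1 and DLL3, the target HES1 (-4.38, the largest) and the coactivator MAML1. The 3 that rose were the ligands JAG1 and JAG2 and the target HEY1. JAG1 had 12.9, 15.9, 14.5 and 38.8 CPM at day 3 and 118, 66.9, 42.8 and 83.2 CPM at day 7 (log2 2.01, SE 0.44, edgeR adjusted p = 0.00276), and without day 3 replicate 4, the highest of its group, the change was 2.60.

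Among 19 neural progenitor genes tested 9 fell, 2 rose and 8 did not pass (median -0.78). SOX9, a factor of neural progenitors and glia, had 13.6, 17.9, 12 and 15.8 CPM at day 3 and 0.343, 0.401, 0.302 and 0.31 CPM at day 7 (log2 -5.35, SE 0.22, edgeR adjusted p = 1.06e-08), and HMGA2, a chromatin protein of early progenitors, had 68.5, 80.4, 58.2 and 46.4 CPM at day 3 and 2.38, 7.71, 3.63 and 9.51 CPM at day 7 (log2 -3.42, SE 0.34, edgeR adjusted p = 7e-06). SOX2 went from 49.6 to 9.86 CPM, log2 -2.29. The forebrain factors LHX2 and EMX2 were the 2 that rose, LHX2 with 2.1, 1.96, 2.17 and 3 CPM at day 3 and 6.65, 26.4, 28.3 and 24.4 CPM at day 7 (log2 3.21, SE 0.48, edgeR adjusted p = 0.00017). Of 18 pluripotency genes 5 fell, 4 rose and 9 did not pass (median 0.08, and 0.20 without day 7 replicate 1). These counts lie near the shares of all tested genes called lower (20.5%) and higher (20.8%). PRDM14 was 1 of the 4 that rose, from a mean of 4.33 to 13.7 CPM (log2 1.63, edgeR adjusted p = 0.0182). In WT cells its change was -1.84, and the difference between HET and WT was called over all 36 libraries (3.51, edgeR adjusted p = 0.00146). This call was kept with any 1 library left out. LIN28A, an RNA-binding protein that blocks let-7 maturation, had 184, 218, 179 and 321 CPM at day 3 and 43.6, 116, 140.0 and 102 CPM at day 7 (log2 -1.17, SE 0.29, edgeR adjusted p = 0.00573). POU5F1 had 0.608, 1.17, 0.512 and 31 CPM at day 3 and 0.182, 0.115, 0 and 0.233 CPM at day 7 (log2 -6.00, SE 1.5, edgeR adjusted p = 0.00626), where day 3 replicate 4 was far above the other 3, and without it the change was -2.38.

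**Figure D2:**
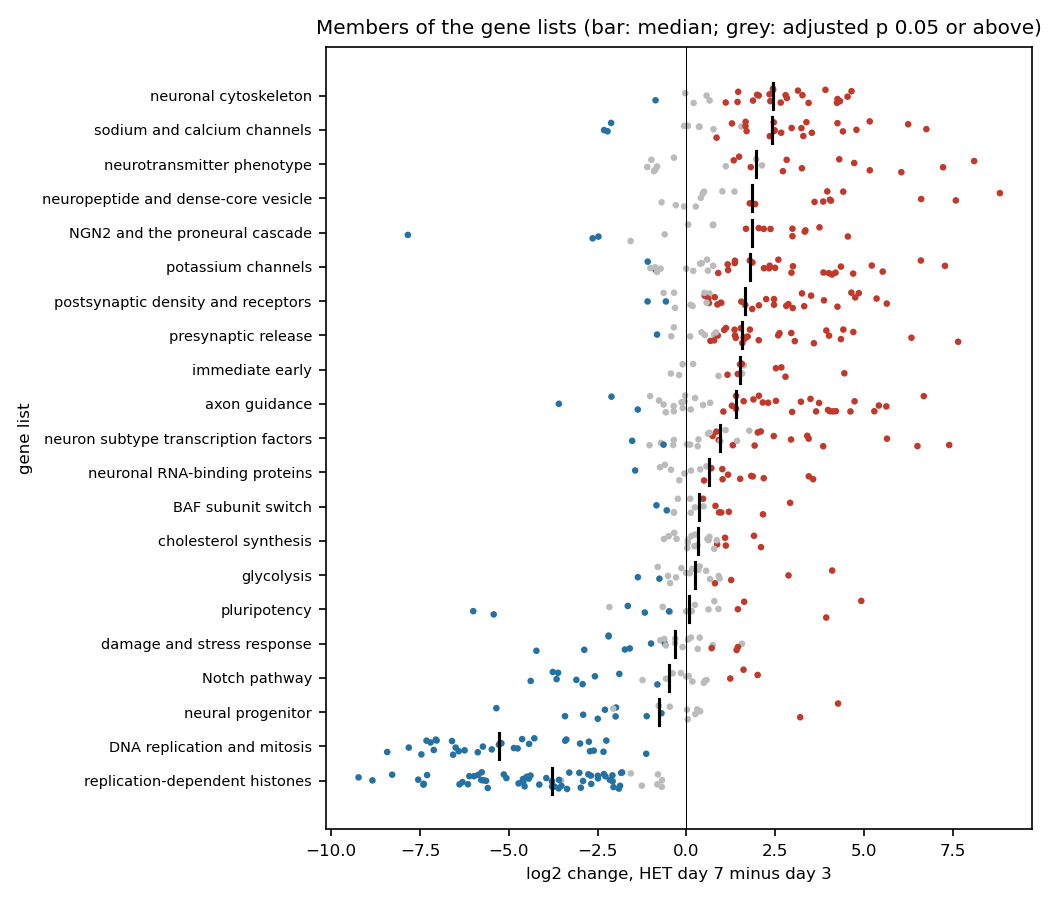
Log2 change from day 3 to day 7 in HET cells (horizontal axis) for every tested member of 21 gene lists (vertical axis), 1 point per gene, grey where the gene was not called, with a bar at the list median. The 33 division genes all lie below -1, whereas most cytoskeletal, synaptic and channel genes lie above 0.

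Of 27 neuronal cytoskeleton genes 22 rose, 1 fell and 4 did not pass (median 2.44). MAPT, the axonal microtubule protein tau, had 12.9, 19.4, 15.2 and 12.3 CPM at day 3 and 372, 355, 491 and 196 CPM at day 7 (log2 4.66, SE 0.29, edgeR adjusted p = 1.61e-07). ANK3, which encodes ankyrin-G of the axon initial segment, had 16.2, 29.3, 19.4 and 10.4 CPM at day 3 and 78.6, 588, 607 and 458 CPM at day 7 (log2 4.54, SE 0.48, edgeR adjusted p = 1.12e-05), with day 7 replicate 1 the lowest of its group. STMN4, a tubulin-binding stathmin, had 7, 13.9, 15.4 and 6.22 CPM at day 3 and 201, 181, 222 and 196 CPM at day 7 (log2 4.33, SE 0.43, edgeR adjusted p = 6.87e-06). All 3 genes kept their groups apart. The neurofilament light chain NEFL went from 297 ± 88.6 to 3144 ± 1129 CPM (SD, n = 4 and 4), a log2 change of 3.45, and the neuronal tubulin TUBB3 changed by 1.46. PRPH, the intermediate filament peripherin, had 12.4, 25.6, 21.3 and 10.6 CPM at day 3 and 561, 104, 147 and 84.6 CPM at day 7 (log2 3.92, SE 0.63, edgeR adjusted p = 0.000299), and without day 7 replicate 1, the highest, its change was 2.67. The 1 that fell was MAP1A, a microtubule protein of mature neurons, with 695, 979.6, 892 and 517 CPM at day 3 and 289, 492, 391 and 445 CPM at day 7 (log2 -0.86, SE 0.2, edgeR adjusted p = 0.00333).

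Neuronal RNA-binding proteins rose in 11 of 20 cases, with 1 fall, 8 not passing and a median of 0.64. The splicing regulators CELF6 and CELF4 changed by 3.57 and 3.45. PTBP1, the repressor of neuronal exons in non-neuronal cells, was the 1 that fell, with 177, 243, 177 and 156 CPM at day 3 and 74.4, 61.8, 51.2 and 69.9 CPM at day 7 (log2 -1.44, SE 0.19, edgeR adjusted p = 7.21e-05) and no overlap of the groups. In the list of BAF chromatin remodelling subunits, where progenitor forms give way to neuronal forms, 7 of 16 rose, 2 fell and 7 did not pass (median 0.36). The neuronal subunit DPF3 had 5.91, 9.16, 10 and 13.3 CPM at day 3 and 70.2, 71.3, 74.6 and 63.7 CPM at day 7 (log2 2.93, SE 0.47, edgeR adjusted p = 0.000274), while ACTL6A, of the progenitor form, changed by -0.84 and its neuronal counterpart ACTL6B by 0.92.

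Presynaptic genes, from vesicle fusion to adhesion, rose in 28 of 37 cases, fell in 1 and did not pass in 8 (median 1.58), and without day 7 replicate 1 there were 29 rises and 3 falls. Their summed level was 2199, 2442, 2231 and 2215 CPM at day 3 and 4312, 5996, 6672 and 4437 CPM at day 7. SLC17A6 (chr11:22338097-22379503, plus), the vesicular glutamate transporter VGLUT2, had 0.532, 1.54, 2.29 and 0.313 CPM at day 3 and 74.7, 299, 436 and 149 CPM at day 7 (log2 7.66, SE 0.66, edgeR adjusted p = 2.13e-06, and 8.25 without day 3 replicate 3). Day 7 replicate 1 was the lowest of its group and still above all of day 3. The calcium sensor SYT4 changed by 3.95 and the fusion protein SNAP25 by 1.54. DNM1, the neuronal dynamin of vesicle recycling, was the 1 that fell (log2 -0.82, SE 0.23, edgeR adjusted p = 0.0129).

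Postsynaptic genes rose in 26 of 37 cases, fell in 2 and did not pass in 9 (median 1.66, and 25 rises and 3 falls without day 7 replicate 1), and their sum went from 973.1 to 1167 CPM at day 3 to 1376 to 2157 CPM at day 7. The AMPA receptor subunit GRIA2 had 1.44, 1.04, 1.38 and 2.85 CPM at day 3 and 31.5, 69.4, 136 and 38.6 CPM at day 7 (log2 5.36, SE 0.56, edgeR adjusted p = 9.78e-06), and GRIA4 had 1.09, 0.77, 1.01 and 1.69 CPM at day 3 and 10.9, 38.3, 45.6 and 29.3 CPM at day 7 (log2 4.76, SE 0.48, edgeR adjusted p = 7.24e-06). GRIA1 changed by 4.86, and the NMDA receptor subunit GRIN2B by 3.88. The 2 that fell were DLGAP2, a scaffold, at -1.09, and the scaffold HOMER1 at -0.57, whose call was lost without day 7 replicate 2 or 4 or day 3 replicate 2 or 3 (edgeR adjusted p = 0.0623, 0.0728, 0.108 and 0.113).

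Sodium and calcium channel genes rose in 21 of 30 cases, fell in 3 and did not pass in 6 (median 2.41), with a sum of 627 to 821.4 CPM at day 3 and 1326, 2287, 2362 and 1710 CPM at day 7. SCN2A, the sodium channel of the axon initial segment, had 0.101, 0.398, 0.282 and 0 CPM at day 3 and 2.06, 33.9, 46.9 and 6.83 CPM at day 7 (log2 6.76, SE 0.97, edgeR adjusted p = 0.000122, and 6.12 without day 7 replicate 3). It overlaps SCN3A, and without knowing whether strand was used their reads cannot be fully told apart. CACNA1G, a T-type calcium channel, and CACNG5 were among the falls, at -2.22 and -2.12. Of 37 potassium channel genes 24 rose, 2 fell and 11 did not pass (median 1.79). KCNK9, a leak channel, had 0.0761, 0.0266, 0.0529 and 0 CPM at day 3 and 3.17, 7.85, 9.2 and 7.1 CPM at day 7 (log2 7.29, SE 0.53, edgeR adjusted p = 4.94e-07). KCNIP1, a partner of A-type channels, had 0.355, 0.345, 0.106 and 0.125 CPM at day 3 and 0.646, 23.6, 17.7 and 1.78 CPM at day 7 (log2 5.53, SE 0.98, edgeR adjusted p = 0.000609, and 4.87 without day 7 replicate 2), so that 2 of the 4 day 7 libraries carried most of the signal. KCNH1, which fell by 1.09, lost its call without any 1 of 6 libraries, all but day 7 replicate 3 and day 3 replicate 4 (edgeR adjusted p from 0.0543 to 0.0885).

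**Figure D3:**
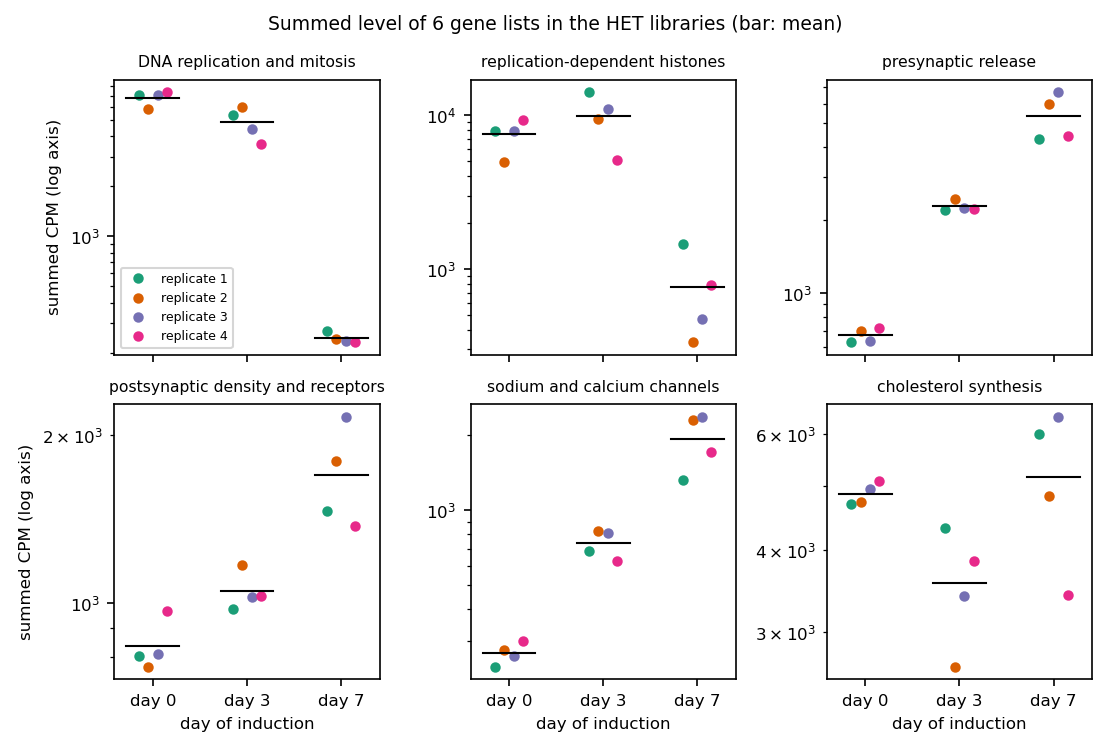
Summed CPM of selected gene lists (vertical axis, log scale) in each HET library at days 0, 3 and 7 (horizontal axis), 1 point per library and a bar at the mean. Division and histone genes drop after day 3, the division list from 3582 CPM or more to 269.9 CPM or less, while presynaptic genes rise from at most 2442 CPM to at least 4312 CPM.

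Axon guidance genes rose in 25 of 43 cases, fell in 3 and did not pass in 15 (median 1.40). ROBO3, a receptor known from commissural axons, had 3.78, 3.56, 2.4 and 4.19 CPM at day 3 and 272, 293, 268 and 544 CPM at day 7 (log2 6.69, SE 0.37, edgeR adjusted p = 7e-08). SLIT1, a repulsive ligand of the ROBO receptors, had 7.5, 7.91, 6.95 and 6.35 CPM at day 3 and 183, 411, 351 and 448 CPM at day 7 (log2 5.64, SE 0.26, edgeR adjusted p = 1.99e-08). Neither gene came near overlapping. The ligand SEMA5A was among the falls, with 35.4, 33.2, 20.6 and 12.4 CPM at day 3 and 0.525, 2.84, 3.3 and 1.59 CPM at day 7 (log2 -3.59, SE 0.47, edgeR adjusted p = 5.65e-05), and the others were the ligand NTN1 (-2.11) and its receptor UNC5B (-1.37).

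Transmitter and peptide genes rose or were not called. Of 20 neuropeptide and dense-core vesicle genes 11 rose and 9 did not pass (median 1.87), and of 21 neurotransmitter genes 12 rose and 9 did not pass (median 1.97). Falls at an unadjusted p under 0.05 in edgeR numbered 0 and 1, and DESeq2 and limma called 0. Without day 7 replicate 1 the neurotransmitter list gave 14 rises and 2 falls of 22. SST (chr3:187668906-187670399, minus), the somatostatin precursor, had 0.355, 0.557, 1.89 and 0.125 CPM at day 3 and 226, 393, 258 and 488 CPM at day 7 (log2 8.84, SE 0.68, edgeR adjusted p = 7.9e-07), with 0.19 CPM at day 0, and without day 3 replicate 3 its change was 9.99. ADCYAP1, the PACAP precursor, had 0.304, 0.159, 0.265 and 0.219 CPM at day 3 and 17.9, 27.5, 23.2 and 22.8 CPM at day 7 (log2 6.62, SE 0.34, edgeR adjusted p = 3.27e-08). GAD2, which makes GABA, had 0.0254, 0.0266, 0.0529 and 0 CPM at day 3 and 3.01, 9.8, 10.7 and 12.1 CPM at day 7 (log2 8.11, SE 0.95, edgeR adjusted p = 2.51e-05, and 8.71 without day 3 replicate 3), and ACHE, which breaks down acetylcholine, had 19.8, 16.6, 17.4 and 22.6 CPM at day 3 and 166, 114, 122 and 67.2 CPM at day 7 (log2 2.72, SE 0.4, edgeR adjusted p = 0.000152). Rises were thus called for genes of GABA, peptide and acetylcholine systems alike, and bulk counts do not say whether the same cells carried them.

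Among 31 neuron subtype transcription factors 15 rose, 2 fell and 14 did not pass (median 0.96). LHX9 had 0.304, 1.27, 3.99 and 0.125 CPM at day 3 and 108, 210.1, 507 and 158 CPM at day 7 (log2 7.41, SE 0.99, edgeR adjusted p = 0.000229, and 8.79 without day 3 replicate 3), and the sensory neuron factor POU4F2 changed by 5.66. PAX2, a hindbrain and spinal interneuron factor outside the list, had 0.0254, 0.0796, 0.0706 and 0.0938 CPM at day 3 and 22, 41.6, 28.4 and 28.7 CPM at day 7 (log2 8.80, SE 0.64, edgeR adjusted p = 4.64e-07). TLX3, a sensory and spinal neuron factor, fell, with 23.7, 48.3, 46 and 19.9 CPM at day 3 and 10.7, 14.8, 6.1 and 13.3 CPM at day 7 (log2 -1.52, SE 0.32, edgeR adjusted p = 0.00186). None of 15 HOX genes tested passed (median 0.85, 0 at an unadjusted p under 0.05 in edgeR, and 0 by DESeq2 or limma), and without day 7 replicate 1 the median was -1.34. The summed level of 24 HOX genes was 134, 12, 16.2 and 12.4 CPM at day 3 and 257, 11.6, 14.9 and 29.2 CPM at day 7, after 241, 0.672, 4.43 and 11.1 CPM at day 0, so that replicate 1 stood far above the other 3 at each day. In the list of neurotrophin and GDNF genes 6 of 14 rose, 3 fell and 5 did not pass (median 0.91), and without day 7 replicate 1 there were 5 rises and 2 falls (median 0.52). RET, the signalling receptor for GDNF, a supplement of the medium, had 1.39, 0.611, 0.759 and 1.53 CPM at day 3 and 18.7, 270.0, 210.4 and 201 CPM at day 7 (log2 7.33, SE 0.69, edgeR adjusted p = 4.42e-06), and its co-receptor GFRA1 had 62.4, 176, 132 and 85.5 CPM at day 3 and 273, 628, 624 and 574 CPM at day 7 (log2 2.25, SE 0.31, edgeR adjusted p = 8.95e-05). NTRK2, the BDNF receptor, changed by 5.83, while the ligand NTF3 changed by -1.90.

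By the rule of largest change without overlap, the rises were led by TNC, KLHL1 and OPCML. TNC (chr9:115019578-115118257, minus), the extracellular matrix protein tenascin-C, had 0.482, 0.504, 0.123 and 0 CPM at day 3 and 33.4, 1546, 895 and 837 CPM at day 7 (log2 11.53, SE 1.22, edgeR adjusted p = 1.11e-05). It was at 215 CPM at day 0, so it was low at day 3 alone, and day 7 replicate 1 lay far below the other 3. KLHL1, a neuronal actin-binding protein, had 1 count in all of day 3 and 1858 at day 7, a ratio per counted read of 2055 (95% exact interval 368 to 81220.2, counting error only), so its fitted log2 of 10.36 depends on the prior count. OPCML, a neuronal adhesion molecule, had 0.177, 0.0796, 0 and 0.0625 CPM at day 3 and 31.4, 91.7, 182 and 17.5 CPM at day 7 (log2 10.04, SE 0.92, edgeR adjusted p = 3.42e-06, from 9.29 without day 7 replicate 3 to 10.82 without day 3 replicate 1). FAIM2, a neuronal inhibitor of FAS-driven death, had 1.6, 1.04, 0.741 and 0.813 CPM at day 3 and 125, 221, 275 and 184 CPM at day 7 (log2 7.64, SE 0.36, edgeR adjusted p = 2.16e-08).

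CAV3 and E2F2 were among the 12 largest falls by the same rule. CAV3, a caveolin of muscle membranes, had 31.3, 11.8, 17 and 26.8 CPM at day 3 and 0.0606, 0, 0 and 0.0776 CPM at day 7 (log2 -9.13, SE 0.67, edgeR adjusted p = 5.57e-07, and -9.88 without day 7 replicate 1), after 0.127 CPM at day 0, so it was highest at day 3. It overlaps OXTR, RAD18 and SSUH2 in the annotation. E2F2, an S phase activator, had 38, 42.7, 38.9 and 18.8 CPM at day 3 and 0.141, 0.0287, 0 and 0 CPM at day 7 (log2 -9.16, SE 0.61, edgeR adjusted p = 2.69e-07, and -11.34 without day 7 replicate 1).

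**Figure D4:**
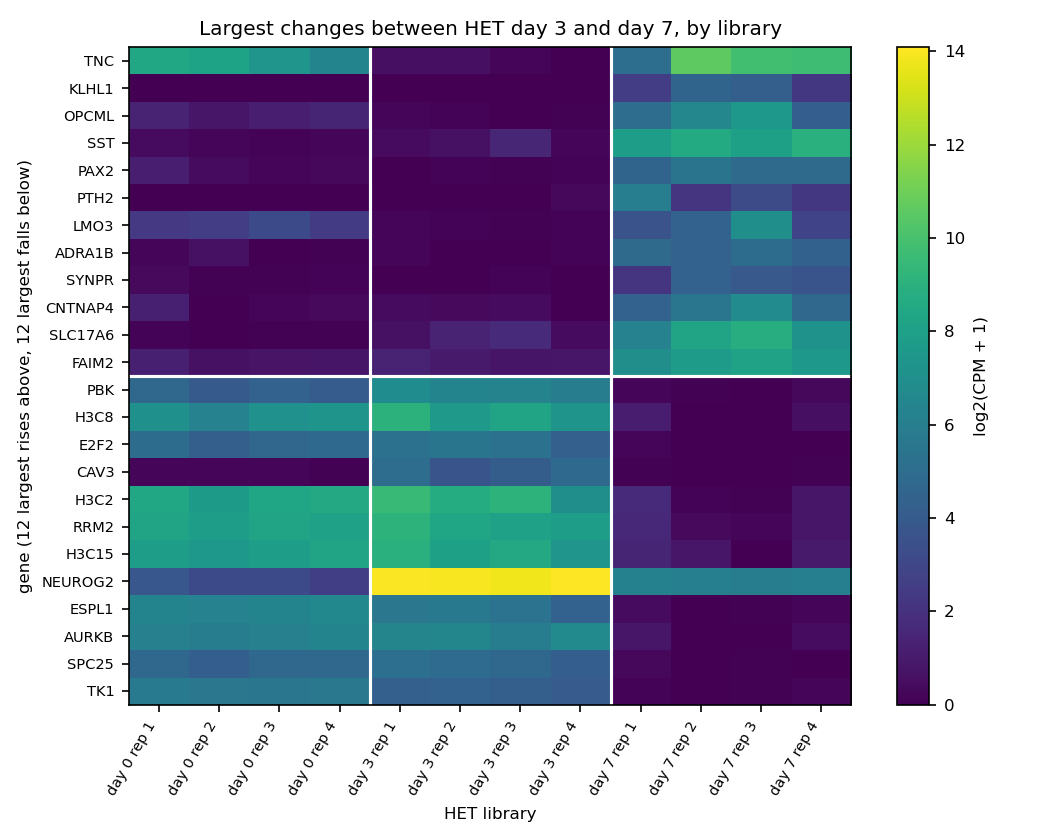
Level of the genes with the largest changes by the naming rule (vertical axis, 1 row per gene) in each HET library at days 0, 3 and 7 (horizontal axis), as colour on a log2(CPM + 1) scale. Day 7 replicate 1 is dim for TNC (33.4 CPM against 837 CPM or more in the other 3). The falling genes are dark in all 4 day 7 libraries, apart from NEUROG2, which kept 59.0 to 71.7 CPM.

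Rises of cholesterol synthesis and glycolysis genes were near the share of all tested genes called higher, 20.8%. Of 21 cholesterol synthesis genes 5 rose, none fell (1 at an unadjusted p under 0.05 in edgeR, and 0 by DESeq2 or limma) and 16 did not pass (median 0.32). HMGCS1, an early enzyme of the pathway, had 249, 124, 197 and 116 CPM at day 3 and 601, 693, 1077 and 453 CPM at day 7 (log2 2.11, SE 0.28, edgeR adjusted p = 7.26e-05), and SREBF2, the regulator of the pathway, had 386, 289, 309.7 and 395 CPM at day 3 and 836, 663, 752 and 518 CPM at day 7 (log2 1.09, SE 0.22, edgeR adjusted p = 0.00156). Each day 7 library was above each day 3 library for both genes. In MVD, which changed by 1.91, day 7 replicate 1 was the highest, and without it the change was 1.23. Glycolysis genes gave 4 rises and 2 falls of 20 (14 not passing, median 0.25), which became 2 and 3 (median -0.32) without day 7 replicate 1 and 8 and 2 without day 3 replicate 4, the latter chosen after seeing the data. ENO2, the neuronal enolase, had 13.2, 21.3, 15.4 and 82.2 CPM at day 3 and 616, 579, 703 and 355 CPM at day 7 (log2 4.11, SE 0.62, edgeR adjusted p = 0.000183, and 5.21 without day 3 replicate 4), and LDHB had 679, 684, 761 and 809 CPM at day 3 and 261, 272, 308 and 248 CPM at day 7 (log2 -1.36, SE 0.17, edgeR adjusted p = 3.96e-05).

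Of 23 genes of the damage and stress response list 8 fell, 3 rose and 12 did not pass (median -0.32). MDM2, a ubiquitin ligase, and BAX, an effector of cell death, changed by -0.99 and -1.59. The rises were XBP1, TRIB3 and ATF3, of the unfolded protein and integrated stress responses, and that of ATF3 was lost without day 7 replicate 1 or day 3 replicate 1 (edgeR adjusted p = 0.0538 and 0.05). Immediate early genes, which respond to activity and handling, rose in 8 of 15 cases with no fall (median 1.52, with 0 falls at an unadjusted p under 0.05 in edgeR and 0 by DESeq2 or limma), and in 7 with 1 fall without day 7 replicate 1. EGR1 had 0.254, 0.451, 0.423 and 0.657 CPM at day 3 and 1.27, 15.2, 7.28 and 16 CPM at day 7 (log2 4.45, SE 0.61, edgeR adjusted p = 8.9e-05). JUN, a subunit of the AP-1 factor, lost its call without day 7 replicate 1 or day 3 replicate 1, 2 or 3 (edgeR adjusted p = 0.108, 0.0896, 0.0866 and 0.076). Among markers of other cell types, the gap junction gene GJA1 had 50, 39.8, 32.4 and 68.4 CPM at day 3 and 0.667, 0.802, 0.0756 and 1.67 CPM at day 7 (log2 -5.89, SE 0.58, edgeR adjusted p = 5.9e-06) and OLIG1 had 1.88, 1.25, 2.15 and 12 CPM at day 3 and 91.7, 58.9, 67.1 and 91.6 CPM at day 7 (log2 4.19, SE 0.73, edgeR adjusted p = 0.00057, and 5.58 without day 3 replicate 4).

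The same interval was set beside that of the unedited and the RAI1-null cells, whose libraries are separate. WT cells had 10284 calls of 22268 (46.2%) and KO cells 10555 of 22059 (47.8%). Of genes tested in both HET and WT, 8683 were called in HET and 9975 in WT, and 6524 were called in the same direction in both, which is 75.1% of the HET calls and 65.4% of the WT calls, while 88 were called in opposite directions. With KO, the shared calls were 6726 (76.2% of HET and 66.2% of KO calls), and 34 were opposite. The difference of the changes was tested as an interaction over all 36 libraries. It passed for 1174 of 24764 genes (4.74%) between HET and WT, with 509 higher (2.06%) and 665 lower (2.69%) in HET, and for 564 (2.28%) between HET and KO, with 400 higher (1.62%) and 164 lower (0.662%). Without HET day 7 replicate 1 the first count was 2353, and without HET day 7 replicate 3 it was 729. The second count was 900 and 874 without HET day 7 replicate 3 and KO day 3 replicate 4, and 267 to 368 without HET day 3 replicate 1, KO day 3 replicate 1 or KO day 7 replicate 1, 2 or 3. The HET libraries are common to both interactions. The calls of single genes depended on the libraries in the fit. Fitted on the 16 libraries of the 4 groups alone, 64 of the 107 differences to WT and 32 of the 50 differences to KO that were followed gene by gene lost their call, and limma on log2(TPM + 1) kept 8 and 11 of them.

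Division genes differed in depth of fall. All 33 fell in WT as well, with a median of -3.73, and in KO, with a median of -5.23. The fall was called deeper in HET than in WT for 17 of 33, for 20 without HET day 7 replicate 1 and for 12 without WT day 7 replicate 1. Against KO, 7 fell further in HET, among them the replication genes MCM4 (-1.55, edgeR adjusted p = 0.00744), MCM6 (-1.25, edgeR adjusted p = 0.0134), PCNA (-1.54, edgeR adjusted p = 0.0045), CDC6 (-1.72, edgeR adjusted p = 0.00786) and GINS2 (-1.38, edgeR adjusted p = 0.00329). These 5 kept their call with any 1 library left out, and all 5 lost it on the 16 libraries of the HET and KO groups (edgeR adjusted p from 0.0614 to 0.112) and with limma on TPM (adjusted p from 0.293 to 0.596). For PCNA, the replication clamp, the means were 173 CPM at day 3 and 15.8 CPM at day 7 in HET and 65.9 and 17.5 CPM in KO, so the means were far apart at day 3 and close at day 7. Histone genes fell further in HET than in WT for 4 of the list, for 22 without HET day 7 replicate 1.

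The difference to WT was called lower for 4 of 22 Notch genes, NOTCH2, NOTCH3, DLL4 and HEYL. NOTCH3 went from 11 to 2.76 CPM in HET and from 20.2 to 19.9 CPM in WT. On the 16 libraries NOTCH3 and DLL4 lost the call (edgeR adjusted p = 0.0548 and 0.0546), as did ELAVL2 (0.0526), and with limma on TPM all 4 Notch genes did (adjusted p from 0.105 to 0.57). NOTCH2 went from 71.3 to 4.94 CPM in HET, from 119.8 to 56.8 CPM in WT and from 31.8 to 1.39 CPM in KO, and the difference to WT was called (-2.77, edgeR adjusted p = 9.65e-06). SOX9 fell from 14.8 to 0.339 CPM in HET and from 15.3 to 4.72 CPM in WT (-3.73, edgeR adjusted p = 1.54e-05). Of the neuronal RNA-binding proteins ELAVL2, ELAVL3, NOVA2 and MSI2 changed less upward or more downward in HET than in WT. ELAVL3, a marker of early neurons, went from 256 to 313 CPM in HET and from 70.1 to 274 CPM in WT (-1.68, edgeR adjusted p = 0.00509), so that the day 7 means were close and the day 3 means were not. NEUROD1, a proneural factor, lay between the lines: it went from 67.5 to 100.5 CPM in HET, from 22.2 to 421 CPM in WT (-3.61, edgeR adjusted p = 0.000997) and from 89.4 to 11.8 CPM in KO (3.60, edgeR adjusted p = 0.00213). SCRT1 and SCRT2 rose more in HET than in KO (2.90, edgeR adjusted p = 0.00133 and 2.23, edgeR adjusted p = 0.00248). Both had higher day 3 means in KO. SCRT1 went from 8.40 to 104 CPM in HET and from 29.2 to 49.3 CPM in KO. SCRT2 went from 1.79 to 39.9 CPM in HET and from 6.73 to 32.0 CPM in KO. On the 16 libraries NOTCH2, SOX9, ELAVL3, NEUROD1, SCRT1 and SCRT2 kept these calls, and with limma on TPM NEUROD1 and SCRT1 did.

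Cholesterol synthesis genes gave 5 interactions with WT, all higher in HET, and 3 without HET day 7 replicate 1 or without WT day 7 replicate 1. Against KO the median difference was -0.10. HMGCS1 went from 172 to 706 CPM in HET and from 147 to 213 CPM in WT (1.43, edgeR adjusted p = 0.00936). HMGCS1 kept the call with any 1 library left out, while MVD and SQLE lost it in some, and all 3 lost it on the 16 libraries (edgeR adjusted p = 0.0819, 0.193 and 0.212) and with limma on TPM (adjusted p = 0.191, 0.111 and 0.156). In WT 10 of the 21 genes fell and 2 rose, and in KO 10 rose and none fell.

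Single genes with the largest interactions included DUSP5, a phosphatase of the ERK pathway. DUSP5 had 429, 699, 575 and 874 CPM at day 3 and 10.9, 15, 11.2 and 12.1 CPM at day 7 in HET (log2 -5.66, SE 0.36, edgeR adjusted p = 1.7e-07), with no overlap, while its log2 change was 0.58 in WT and 1.10 in KO, and both differences were called (-6.23, edgeR adjusted p = 7.65e-10 against WT, and -6.70, edgeR adjusted p = 1.07e-10 against KO). CHRNA1, a muscle-type acetylcholine receptor subunit, had 69.8, 99.5, 96.5 and 52.5 CPM at day 3 and 6.55, 4.9, 0.68 and 3.61 CPM at day 7 in HET, a change of -4.18, against 0.79 in WT (-4.97, edgeR adjusted p = 8.65e-06). BMP3, a secreted BMP family member, had 0.101, 0.106, 0.176 and 0.0313 CPM at day 3 and 1.09, 33.8, 14.8 and 9.74 CPM at day 7 in HET, a change of 7.01 (6.27 without day 7 replicate 2), against -2.97 in WT (9.93, edgeR adjusted p = 1.22e-06, and 9.17 to 10.39 with 1 library left out). OPRK1, the kappa opioid receptor, had 0.279, 0.292, 0.247 and 0.594 CPM at day 3 and 5.41, 27.9, 22.5 and 18.6 CPM at day 7 in HET, a change of 5.72, against 6.26 in WT and -1.14 in KO (6.93, edgeR adjusted p = 3.88e-07). OPCML and KCNIP1 rose more in HET than in WT (5.44, edgeR adjusted p = 0.00218 and 5.35, edgeR adjusted p = 0.00147, and 4.70 to 6.24 and 4.69 to 5.98 with 1 library left out). On the 16 libraries each of these differences kept its call, and with limma on TPM those of OPCML and KCNIP1 lost it (adjusted p = 0.12 and 0.198).

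**Figure D5:**
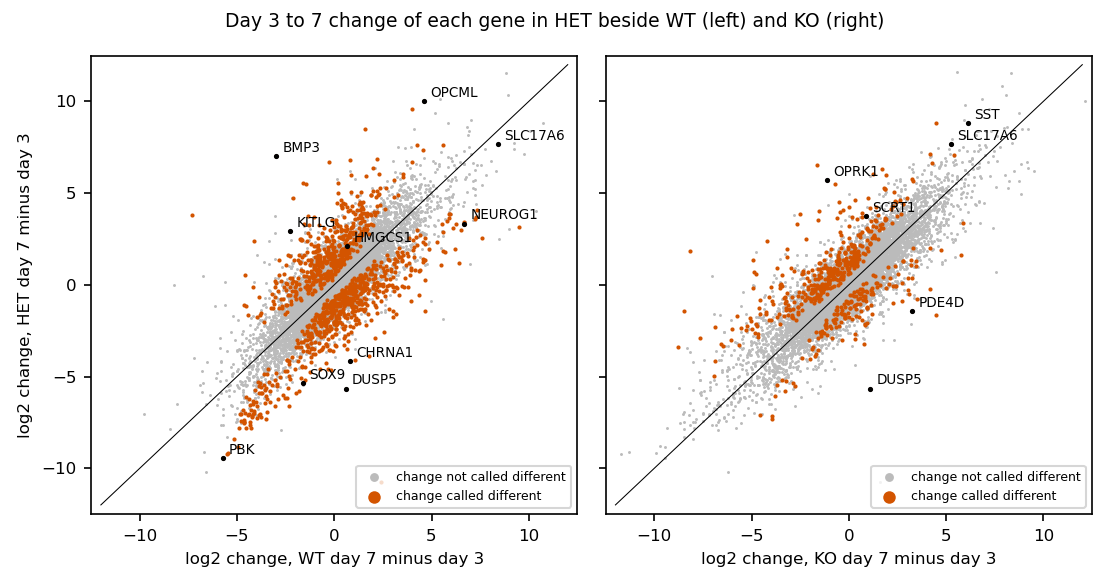
Log2 change from day 3 to day 7 in HET cells (vertical axis) against that in WT and in KO cells (horizontal axes, 1 panel each), 1 point per gene tested in both, with genes whose difference passed the interaction test coloured. Most called genes lie in the quadrants of equal sign, and DUSP5, at -5.66 in HET, lies right of 0 in both panels.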

How the data were processed

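RNA was measured in 36 libraries, of which the 8 of HET days 3 and 7 were compared here, with 4 HET day 0, 12 WT and 12 KO libraries beside them. As deposited by the authors, each gene had an expected count (100% of the cells were whole numbers, so no rounding was needed) and a TPM value. Per the submitters' processing notes the tools were cutadapt 4.8, FastQC 0.11.8, MultiQC 1.20, STAR 2.7.8a and RSEM 1.3.3 with GRCh38; the annotation and the use of strand are not given in the sources used here. The table held 62710 genes and 4 reporter sequences (at most 0.0171% of a library), which were left out, and 58274 identifiers (92.9%) matched GENCODE 29.

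CPM values are counts scaled to the total of gene counts in the library, without TMM. The change from day 3 to day 7 was tested with edgeR 4.0.16 (R 4.3.3) on the 12 HET libraries: filterByExpr, TMM scaling, quasi-likelihood F test and Benjamini-Hochberg adjustment at 0.05. WT and KO were fitted alike, and differences of changes came from an interaction over all 36 libraries. The 2 RNA shares were compared by two-sided exact permutation tests. Alternatives used DESeq2 1.42.0, limma 3.58.1 on log2(TPM + 1), other scalings, filters, library sets, a replicate block and leaving out each library. On simulated counts the main test recovered 26.7% of 90 genes changed by 1 and 82.7% of 110 genes changed by 2 on the log2 scale. It tested 21246 genes, and 4.2% of the genes it called were false calls. The changed genes were picked among well-counted genes and were far fewer than those called in the data. These rates therefore need not hold for the comparison itself.

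Genes named were RAI1, the 12 largest called rises and falls (no overlap, and a group mean of 10 CPM or more), up to 4 called members per list whose level reached 5 CPM, at least 1 of them in the less frequent direction, and 5 interactions per direction. Members and lists were chosen with earlier results of these data known, and other list members given as examples were chosen after their values were seen. Promoters were RefSeq sequences on GRCh38.p14. Python 3.11.15, numpy 2.4.6, pandas 2.3.3, scipy 1.17.1 and matplotlib 3.10.9 were used.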

Additional observations from a re-analysis of the deposited data

Results flagged for a closer look

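Within a group of 4 libraries, 15 of 211 checked groups of values held 1 library far from the other 3, where chance marks about 1 in 20, or 10.6. Day 3 replicate 4 was the far library in 6 of them and day 7 replicate 1 in 5. At day 3, replicate 4 was at 38.8 CPM for JAG1 (12.9 to 15.9 in the others), 31.0 CPM for POU5F1 (0.512 to 1.17), 82.2 CPM for ENO2 (13.2 to 21.3), 31.9 CPM for SLC16A3 (2.02 to 2.13), 12 CPM for OLIG1 (1.25 to 2.15) and 34.4 CPM for KLHL40 (1.67 to 6.84), and replicate 1 was at 15.4 CPM for KHDRBS3 (8.18 to 9.3). At day 7, replicate 1 was at 63.5 CPM for PTH2 (3.3 to 8.24), 273 CPM for GFRA1 (574 to 628), 7.37 CPM for FDXR (3.35 to 3.73), 161 CPM for JUN (75.7 to 85.6) and 561 CPM for PRPH (84.6 to 147). Replicate 3 was at 128 CPM for LMO3 (6.05 to 20.5), and replicate 4 at 544 CPM for ROBO3 (268 to 293) and 9.12 CPM for PDGFRA (1.97 to 2.98).

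The change from day 3 to day 7 differed between HET and WT for 1174 genes and between HET and KO for 564 in the interaction tests. Against WT, the largest differences by the naming rule were lower in HET for DUSP5 (-6.23), KLHL40 (-5.11), CHRNA1 (-4.97), LRRC53 (-4.97) and IRAK4 (-4.44), all on the log2 scale. The calls for KLHL40 and IRAK4 were lost without HET day 3 replicate 4 (-3.34, edgeR adjusted p = 0.0858) and without WT day 7 replicate 2 (-3.94, edgeR adjusted p = 0.0539). They were higher in HET for BMP3 (9.93), OPCML (5.44), KCNIP1 (5.35), KITLG (5.19) and C3orf52 (5.12). Against KO they were lower for DUSP5 (-6.70), PDE4D (-4.63), H3C7 (-3.31, lost without KO day 7 replicate 1 at -2.89, edgeR adjusted p = 0.0761), EPHA7 (-3.24) and MIR4500HG (-2.94), and higher for TBC1D3G (7.07), OPRK1 (6.93), PDGFRA (5.40), ADAMTS5 (5.14) and LRRTM3 (4.70).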

How the results depend on the processing

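The 8955 genes changed between days 3 and 7 became 2587 with limma on log2(TPM + 1), with 58.7% of them higher against 50.3%, and 7646 (without HET day 7 replicate 3) to 10756 (without HET day 7 replicate 1) with 1 library left out. The other counts were 8955 with DESeq2 size factors, 8776 with library size alone, 9786 with DESeq2 and 9118 with no filter. On the simulated counts 25% of the calls by DESeq2 were false, against 4.2% of those by edgeR, rates that need not hold for these data. The 1174 differences between HET and WT became 109 with limma on TPM (65.1% higher against 43.4%), 389 on the 16 libraries of the 4 groups, 2329 without HET day 7 replicate 1 and HET day 3 replicate 4, which was chosen after seeing the data, and 729 to 2353 with 1 library left out. The 564 between HET and KO became 1062 with DESeq2, 147 with limma on TPM (84.4% higher against 70.9%), 141 on the 16 libraries and 267 (without KO day 3 replicate 1) to 900 (without HET day 7 replicate 3) with 1 library left out. Without HET day 3 replicate 1, 56.2% of these were higher. The cause was not tested. The direction changed for the RAI1 change without HET day 3 replicate 4 (-0.074, at most 0.26 without day 7 replicate 4) and without both libraries (-0.109), for LRRC53 without HET day 3 replicate 3 (0.331, at least -0.984), for PDGFRA without HET day 7 replicate 4 (-0.103, and 0.943 without the 2 libraries) and, with limma on TPM, for IRAK4 (0.08, and 0.076 for its difference to WT) and the differences to WT of KCNIP4 (0.494), HCN2 (0.232) and EFNA2 (0.169). The small structural RNA share, 0.44 percentage points higher at day 7, was -1.53 by TPM, -4.73 without day 7 replicate 1, -0.02 without day 7 replicate 4 and -1.69 without day 3 replicate 2, at most 3.48. The mitochondrial share was 0.2 by TPM, 0.25 without day 7 replicate 1 and 0.06 without day 3 replicate 2, at least -0.21. For the changes of 131 named genes, 2406 of 2489 alternatives kept direction and call, and 76, in 30 genes, lost the call. Limma on TPM called fewer members by over 1.5 times in 18 of 31 lists. With the replicate number as a block the counts were 8800, 1125 and 498. Same-numbered HET libraries of days 3 and 7 correlated at 0.166, 0.498, 0.271 and -0.157 in their deviations. Pairs of different number ran from -0.51 to 0.469, and day 3 replicate 4 correlated best with day 7 replicate 1 (0.469). The main fit did not pair libraries by number, because the labels name a single batch, and the replicate number was kept as an alternative. The summed HOX level set replicate 1 apart on each HET day (241.1, 133.8 and 257.2 CPM). KO replicate 1 stood apart likewise at days 3 and 7 (72.48 and 114.9 CPM, against at most 17.32 and 20.18 CPM). WT replicate 1 did not at day 7 (26.13 CPM, against 25.98 CPM in replicate 4). Whether libraries of the same number share an origin was not tested. Totals of 25.8 to 56.7 M counts limit calls for genes of few counts.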
